A study of Mus musculus with 3 samples.

Results

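Msln, Clu, Ly6a, Wfdc2, Upk1b and Clic3 are 6 genes used as markers of fetal and regenerative epithelium. They were found by symbol, with 1 row each in every library, among 46675 genes listed in any of the 3 libraries. Each was followed through droplet single-cell RNA sequencing of the mouse hindstomach, the glandular part of the stomach, at embryonic day 18.5. All 3 genotypes carried Shh-Cre, a recombinase driven from the Shh locus, which is active in the gut epithelium. The control carried Shh-Cre alone, the YAP5SA library came from Shh-Cre;YAP5SA tissue and the Yap knockout library from Shh-Cre;YaploxP/loxP tissue. YAP5SA is a form of the coactivator YAP whose inhibitory phosphorylation sites are mutated. Each genotype had 1 library, and the sources used here do not give the number of embryos behind it, so no difference between genotypes had a replicate check and no test was made. Intervals are 95% and cover counting error only.

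YAP is held inactive by the Hippo pathway and, when free, enters the nucleus and acts on genes through TEAD factors. In the injured gut, epithelial cells can switch on a programme that resembles the fetal epithelium, and YAP activity is known to favour that state. Msln (mesothelin) and Ly6a (Sca-1) encode surface proteins held by a lipid anchor, Upk1b is a tetraspanin of the uroplakin plaques of the urothelium, Clu (clusterin) is a secreted chaperone, Wfdc2 is a secreted member of the whey acidic protein family and Clic3 belongs to the chloride intracellular channel family. Several of them also mark other tissues, Msln and Upk1b the mesothelium that covers the stomach and Ly6a the endothelium and blood cells.

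Promoter sequence was at hand for Wfdc2 and Clic3, which are shown because both stood far above the control in YAP5SA epithelium. RefSeq has 2 entries for Wfdc2, of which 1 is printed. Both genes lie on the plus strand of chromosome 2, and the 120 bases before the start of each gene are given 5′ to 3′ from RefSeq (GRCm38.p6). Capitals mark the GC box core GGGCGG on either strand.
Wfdc2, chr2:164562595-164562714: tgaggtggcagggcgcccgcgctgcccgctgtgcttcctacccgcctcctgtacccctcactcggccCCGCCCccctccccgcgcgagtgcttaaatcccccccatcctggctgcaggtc
Clic3, chr2:25456723-25456842: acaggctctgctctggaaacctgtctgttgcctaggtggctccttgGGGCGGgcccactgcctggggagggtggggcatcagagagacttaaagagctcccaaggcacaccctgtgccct
Over 250 bases before the start, both strands were searched for the TEAD core GGAATG, the AP-1 core TGANTCA and the TATA box core TATAAA, and neither promoter held a match. Of 32851 promoter windows of that length, 12.6% held the TEAD core, 6.75% the AP-1 core and 12.4% the TATA core. The GC box, searched after the other motifs, stood once in each promoter and in 32.7% of all windows. These letters say nothing about binding elsewhere.

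After filtering, 6967 control, 8500 YAP5SA and 4902 Yap knockout cells were kept, with median depths of 4895, 5231.5 and 4988.5 UMIs (unique molecular identifiers, which count captured transcripts) per cell. Cells were classed by markers that did not include the 6 genes. The epithelium gate held 302, 1268 and 462 cells at median depths of 6389, 8963.5 and 7701.5 UMIs. The mesothelium gate held 126, 18 and 16 cells at 8631, 7755.5 and 9601 UMIs. Of the epithelium-gated cells 51, 96 and 72 had just the 3 counted markers that the gate required, so these cells lay at its edge, as did 3, 0 and 1 of the mesothelium-gated cells. In the epithelium gate, the median cell held 16.0, 21.5 and 16.9 UMIs per 10000 from the epithelial marker list, 16.8, 8.59 and 14.2 from smooth muscle markers, 8.43, 3.57 and 2.29 from fibroblast markers and 1.96, 5.43 and 2.34 from myeloid markers, so RNA of other classes was counted in these cells too. Another 33.3%, 31.6% and 35.9% of cells reached no gate. Yap1, the targeted gene, stood at 46.4 CPM (a gene's UMIs scaled to a common total for its class) in control epithelium, 54.3 in YAP5SA and 22.5 in the Yap knockout. The sources used here do not say whether the tag lies inside the deleted part or whether a transgene would be counted under this symbol.

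In the control stomach, 3 of the 6 genes were led by the mesothelium, not by the epithelium. Msln stood at 643 CPM (600 to 688) in mesothelium and 45.0 CPM (37.6 to 53.5) in epithelium, 14.3-fold lower, and every other class with at least 50 cells lay at or below 6.32 CPM. Upk1b followed the same order, with 222 CPM (197 to 250) in mesothelium and 7.03 CPM in epithelium. Clic3 stood at 38.5 CPM (28.5 to 50.9) in mesothelium and 16.5 CPM (12.1 to 22.0) in epithelium. For each of the 3 genes the intervals of mesothelium and epithelium did not overlap. Epithelial Upk1b (4.30 to 10.9) did overlap with the next class, enteric neurons at 3.46 CPM (1.12 to 8.08).

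The secreted pair was led by the epithelium. Clu stood at 1129 CPM (1090 to 1169) in control epithelium, 373 CPM (340 to 408) in mesothelium and 118 CPM in enteric neurons, and Wfdc2 at 418 CPM (395 to 443), 210 CPM (185 to 237) and, in smooth muscle, 19.5 CPM. Ly6a differed from the other 5 genes in where it was found. It was highest in endothelium in every library, at 95.4, 145 and 91.9 CPM (control, YAP5SA, Yap knockout), followed by myeloid cells at 17.3, 15.1 and 35.2 CPM. Control epithelium held 1.76 CPM of Ly6a, from 5 UMIs, against 1.70 CPM in smooth muscle. Ly6c1, a close relative of Ly6a in sequence, had its own peak in endothelium at 270, 344 and 239 CPM, and reads of the Ly6 family could be shared between such genes, so Ly6a values carry that uncertainty.

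**Figure D1:**
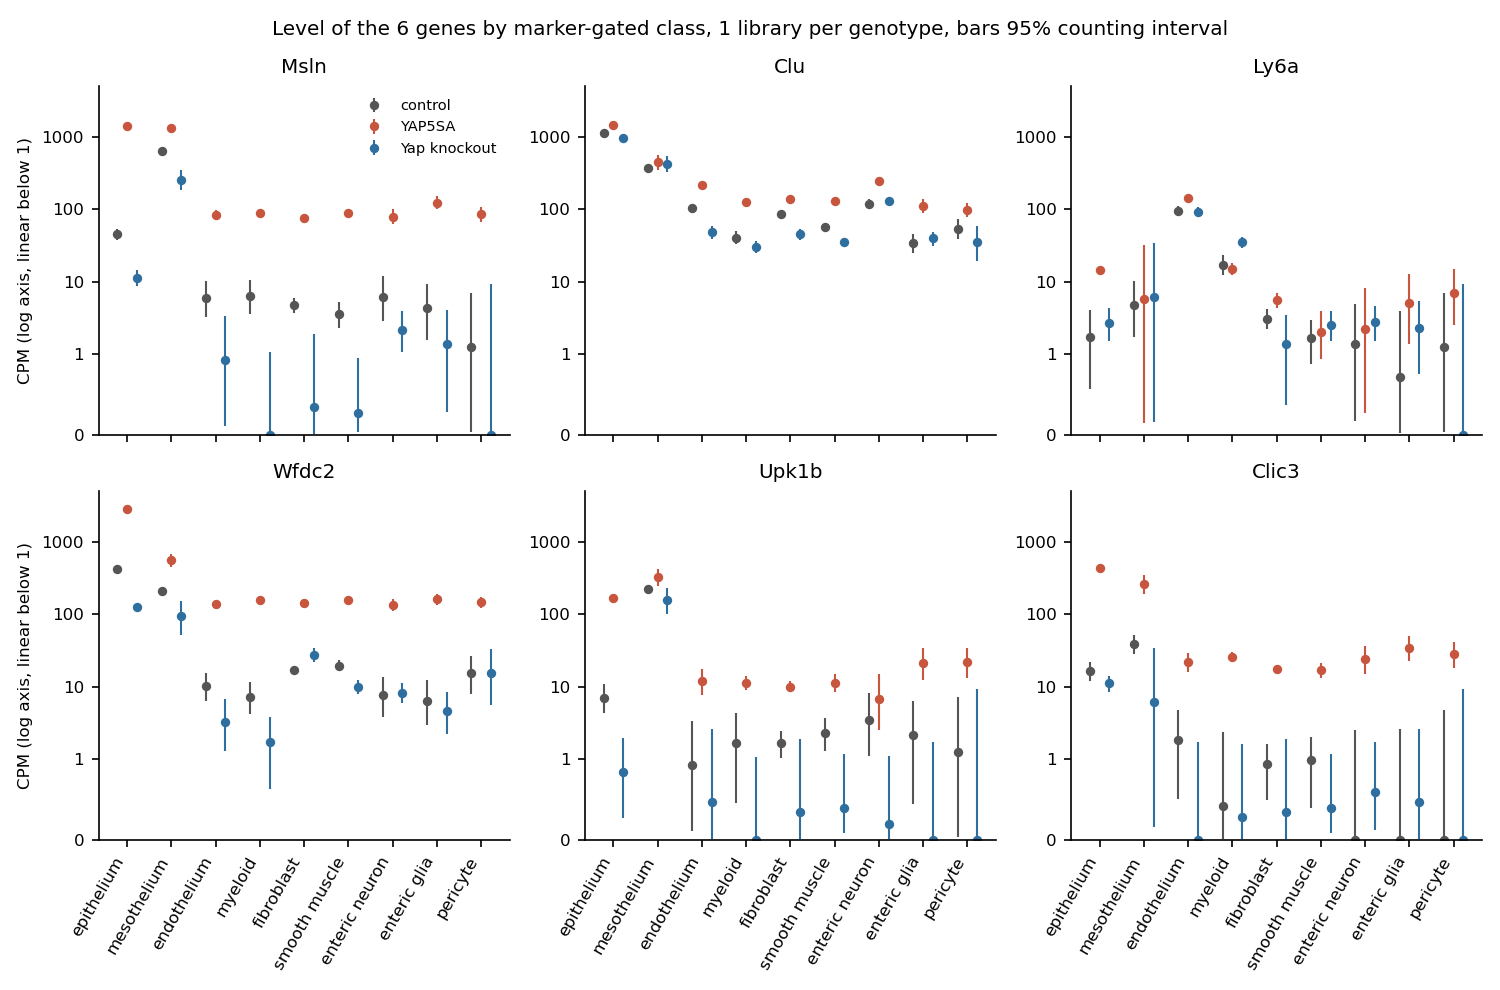
Level of each gene in CPM (symmetric log axis, linear below 1) in 9 marker-gated classes, with 1 point per library and bars for the 95% counting interval. Msln and Clic3 of control cells peak in mesothelium, YAP5SA epithelium reaches 1412 CPM of Msln, and Ly6a peaks in endothelium in all 3 libraries.

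In YAP5SA epithelium all 6 genes were above the control, 5 of them by at least 2-fold. Msln stood at 45.0 CPM in control epithelium, 1412 CPM in YAP5SA and 11.4 CPM in the Yap knockout. YAP5SA epithelium was thereby 31.4-fold (26.4 to 37.6) above the control. Its ratio to the mesothelium gate of the same library was 1.09 (0.952 to 1.25), but that gate held 18 cells, of which 2 carried 50.5% of the Msln UMIs. By joint clusters, 46 mesothelial cells of YAP5SA stood at 995 CPM (885 to 1115) of Msln. Clic3 stood at 16.5, 430 and 11.1 CPM, and its ratio was 26.0 (19.5 to 35.4). Upk1b stood at 7.03, 167 and 0.841 CPM, and its ratio was 23.7 (15.3 to 38.9), from 20 control UMIs. It was 1.96-fold lower in YAP5SA epithelium than in the mesothelium gate of that library.

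Wfdc2 stood at 418, 2777 and 126 CPM in control, YAP5SA and Yap knockout epithelium, 6.64-fold (6.27 to 7.04) higher in YAP5SA. Ly6a stood at 1.76, 14.4 and 2.69 CPM. Its ratio of 8.20 (3.46 to 25.5) in YAP5SA rests on 5 control UMIs. The YAP5SA level stood at a ratio of 1.13 (0.967 to 1.33) to that of the cells outside epithelium and mesothelium. Of the 574 Ly6a UMIs in those cells, 292 came from endothelium and 113 from myeloid cells, so their level is not one of stray RNA. Clu was the member with the smallest difference, at 1129, 1433 and 964 CPM, a ratio of 1.27 (1.22 to 1.32). The order of the libraries was the same for Msln, Clu, Wfdc2, Upk1b and Clic3, with YAP5SA highest and the Yap knockout lowest.

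At a threshold of 2-fold on the log2(CPM + 5) scale, 5 of 6 members were higher and 0 lower in YAP5SA epithelium, where 5.05% of 17531 genes were higher and 3.68% lower. The median log2 ratio was 3.28 over the members and 0.07 over all genes. In the Yap knockout 3 of 6 members (Msln, Wfdc2 and Upk1b) were lower and 0 higher, where 2.07% of 14806 genes were lower and 1.45% higher, with medians of -0.73 and 0.02. Since the genes were chosen with results of these data known, these counts describe the members and test nothing.

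In Yap knockout epithelium Msln, Wfdc2 and Upk1b stood below the control by the most. Msln was 3.94-fold (2.91 to 5.36) lower than in the control and Wfdc2 3.32-fold lower. Upk1b was 8.37-fold lower, from 5 UMIs against 20, and its log2 ratio of -1.04 fell short of 2-fold without squamous, cycling and intestinal gates (-0.60), with the myeloid level subtracted (-0.82), with a gate lead of 1 marker (-0.94) and as a mean over cells (-0.97). In the control, 16 squamous-gated cells of 302 held 12 of the 20 Upk1b UMIs and 50 of the 128 Msln UMIs. The Yap knockout had 6 such cells. Without squamous, cycling and intestinal gates the log2 ratio of Msln was -1.24 in place of -1.61. In the gastric mucous and chief gate Msln had 55 UMIs in 174 control cells and 30 in 200 Yap knockout cells. Upk1b had 7 and 2 UMIs there. Outside the epithelium and mesothelium gates Msln, Wfdc2 and Upk1b were lower in the Yap knockout too. Msln stood at 1.49 CPM against 9.70 in the control, Wfdc2 at 13.1 against 26.2 and Upk1b at 0.649 against 3.41. How far RNA from other cells bears on the differences in epithelium was not tested. In the whole epithelium gate Clu was 1.17-fold lower. Clic3 was 1.49-fold (1.00 to 2.20) lower, but as a mean over cells of each cell's own CPM its log2 ratio turned from -0.42 to 0.0451. Of its 66 UMIs, 27 lay in 6 squamous-gated cells, of which 2 held the gene. Ly6a had a ratio of 1.53 (0.536 to 5.34), which this depth does not separate from 1.

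**Figure D2:**
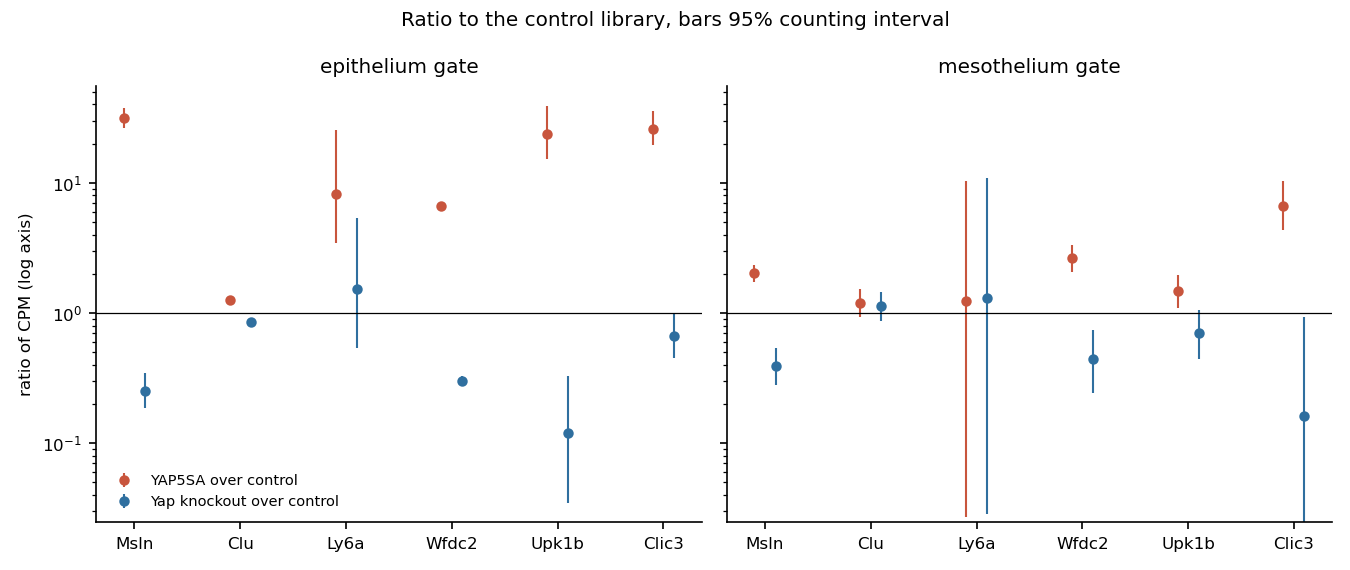
Ratio of CPM to the control library (log axis) for each gene in the epithelium gate (left) and the mesothelium gate (right), with the 95% counting interval as bars. In epithelium Msln, Upk1b and Clic3 of YAP5SA stand above 20 and the Yap knockout points of Msln, Wfdc2 and Upk1b stand below 1. The lower bar of Clic3 in Yap knockout mesothelium runs past the axis.

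RNA of the members was also counted in cells that should lack it, most of all in YAP5SA. Myeloid cells of YAP5SA held 89.0 CPM of Msln, 158 CPM of Wfdc2 and 25.9 CPM of Clic3, against 6.32, 7.17 and 0.422 CPM in control myeloid cells. The other YAP5SA classes with at least 50 cells, epithelium aside, lay in a narrow band, Msln at 75.5 to 131 CPM and Wfdc2 at 135 to 198 CPM. YAP5SA epithelium stood 15.9-fold (14.7 to 17.2) above myeloid cells in Msln, 17.6-fold in Wfdc2, 14.7-fold in Upk1b and 16.6-fold in Clic3. Ly6a is expressed by myeloid cells, so other classes were read for it. In YAP5SA they ranged from 2.05 CPM (0.939 to 3.90) in smooth muscle, the lowest, through 5.55 CPM (4.35 to 6.97) in fibroblasts to 6.98 CPM (2.56 to 15.2) in pericytes, against 14.4 CPM (12.6 to 16.5) in epithelium. The interval of pericytes overlapped with that of epithelium. With the myeloid level of each library subtracted, the log2 ratio of YAP5SA to control epithelium stayed between 2.66 and 4.93 for Msln, Wfdc2, Upk1b and Clic3.

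Detection followed the levels. Msln had a UMI in 17.2% (13.1 to 22.0), 94.2% (92.7 to 95.4) and 6.93% (4.79 to 9.64) of epithelium-gated cells (control, YAP5SA, Yap knockout), and in 3.78%, 36.7% and 0% of myeloid cells. Myeloid cells were shallower, with median depths of 4862, 5390.5 and 6961 UMIs, and 0 of 412 cells in the Yap knockout allows, at a floor of 3 counts, a share of cells with a UMI of up to 0.728%. With every cell thinned to 1000 UMIs, Msln was detected in 2.65%, 63.4% and 0.649% of epithelium-gated cells and in 1.26%, 8.83% and 0% of myeloid cells.

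At that equal depth, Wfdc2 was detected in 28.8%, 86.1% and 7.36% of epithelium-gated cells in the same order, and Clic3 in 1.66%, 30.2% and 0.649%. Without thinning these shares were 67.9%, 98.3% and 34.4% for Wfdc2 and 10.6%, 74.8% and 6.71% for Clic3. Upk1b was detected in 0%, 12.1% and 0% of thinned cells, and in 3.64%, 48.3% and 1.08% without thinning. Clu went the other way in YAP5SA: it was detected in 58.3% (52.5 to 63.9) of thinned control cells and 54.2% (51.4 to 56.9) of thinned YAP5SA cells, although its CPM was higher in YAP5SA. Since the share goes against the CPM, no order is read from it. In the Yap knockout Clu was detected in 38.3% (33.9 to 42.9). Ly6a was detected in 1.66%, 8.04% and 3.25% of epithelium-gated cells without thinning and in 0%, 1.34% and 0.649% with it. Smooth muscle, at median depths of 8782, 7770.5 and 9874 UMIs, had Ly6a in 1.78% (0.925 to 3.09), 1.92% (0.883 to 3.62) and 2.76% (1.64 to 4.33) of cells. Fibroblasts of YAP5SA had it in 2.39% (1.77 to 3.14) of cells at a median depth of 5554 UMIs and pericytes in 3.79% (1.24 to 8.62) at 5519.5, against 8.04% (6.61 to 9.68) in the deeper epithelium. After thinning, the YAP5SA shares were 1.34% (0.783 to 2.14) in epithelium, 0.536% (0.268 to 0.957) in fibroblasts and 1.52% (0.184 to 5.37) in pericytes, with intervals that overlapped, and 0 of 468 smooth muscle cells held it.

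**Figure D3:**
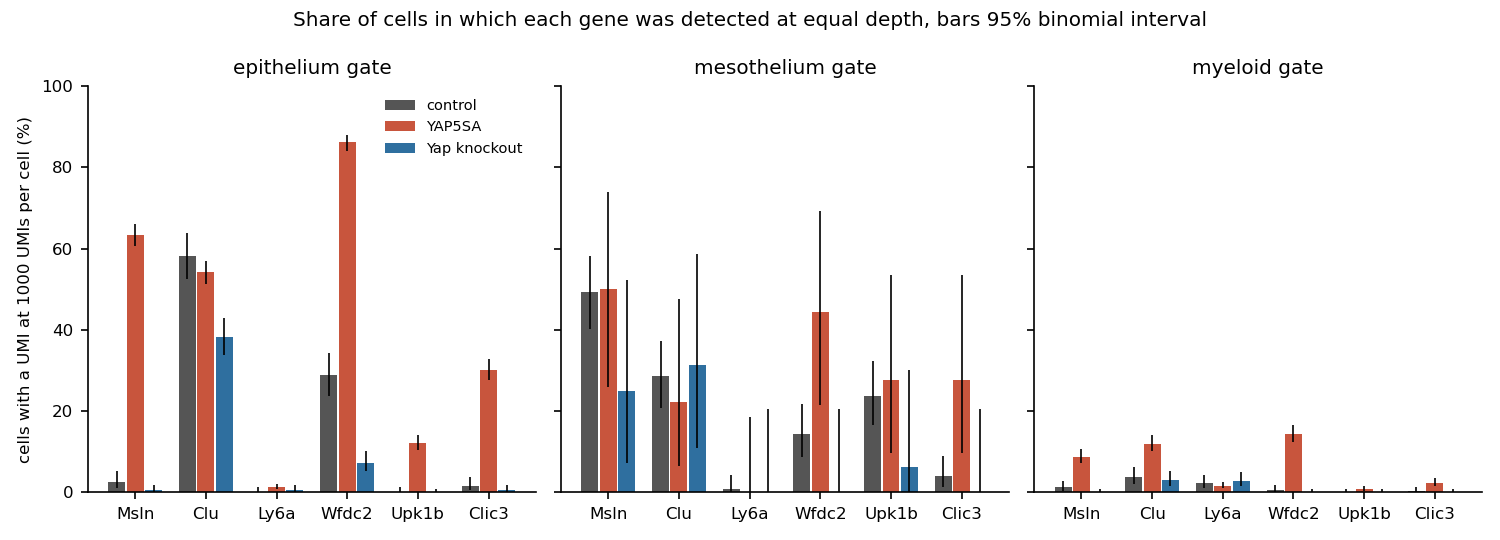
Share of cells with a UMI of each gene after every cell was thinned to 1000 UMIs, in 3 gates, with exact binomial 95% intervals. Msln goes from 2.65% of control to 63.4% of YAP5SA epithelium-gated cells, while Clu differs little between them and Ly6a is near 0 in all libraries.

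Clu in YAP5SA was spread unevenly over cells. The median epithelium-gated cell held 9.20 UMIs of Clu per 10000 in the control and 6.33 in YAP5SA, whereas the cell at the 90th percentile held 27.4 and 46.4. The 127 YAP5SA cells with the most Clu, of 1268, held 55.3% of its UMIs, against 39.5% in the top 31 of 302 control cells. The median cell thus lay below the control and the upper cells above it. Wfdc2 was spread more evenly in YAP5SA, with 33.9% of its UMIs in its top 127 cells, and its median cell held 26.0 UMIs per 10000 against 2.21 in the control.

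The joint clusters of all cells, made without the 6 genes, divided the YAP5SA epithelium in a way that separated the members. Control and Yap knockout epithelium lay mostly in a cluster led by Tff1, Tff2 and Pga5, genes of the gastric mucosa, with 521 and 600 cells, and in a shallow cluster with 323 and 542 cells. YAP5SA epithelium lay mostly in a cluster led by Upk3bl, Krt15, Krt4 and Krt13, with 1277 YAP5SA and 23 control cells, and in a cluster led by the YAP target Ankrd1 and by Mmp7 and Cxcl5, with 402 YAP5SA cells and 0 of the other libraries. Clic3 and Msln were among the 10 leading genes of the Krt15-led cluster and Clu among those of the Ankrd1-led one, so the values below describe the clusters and are no test. The genotypes were thus compared across different clusters.

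Clu stood at 3793 CPM in the Ankrd1-led cluster of YAP5SA and 629 CPM in the Krt15-led one, around the 1269 CPM of the Tff1-led cluster of the control. Ly6a showed the same division, with 39.8 CPM (33.9 to 46.3) in the Ankrd1-led and 5.07 CPM (3.92 to 6.45) in the Krt15-led cluster, and was detected in 15.7% and 3.76% of their cells. Clic3 went the other way, at 130 and 530 CPM, as did Msln at 871 and 1604 CPM. Upk1b stood at 123 and 177 CPM, and Wfdc2 at 2580 and 2850 CPM. So Clu and Ly6a were higher in the Ankrd1-led cells and Clic3, Msln and Upk1b in the Krt15-led cells, while Wfdc2 was high in both. Median depths were close, at 7098.5 and 6561 UMIs.

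Markers of the classes in which Ly6a and Msln are otherwise found were also summed in these clusters. The 8 endothelial markers summed to 205 CPM in the Ankrd1-led and 214 CPM in the Krt15-led cluster, with 0 of 8 at 0, against 6033 CPM in the endothelium gate of that library. The 8 mesothelial markers summed to 127 and 179 CPM, with 1 of 8 at 0 in each, and the 8 myeloid markers to 568 and 602 CPM. The 23 control cells of the Krt15-led cluster already stood above the Tff1-led control cells in Msln, at 293 against 31.8 CPM, in Upk1b at 60.7 against 2.78 CPM and in Clic3 at 96.0 against 13.3 CPM. Few of the 23 cells carried these UMIs, with Msln detected in 30.4% of them, Upk1b in 17.4% and Clic3 in 34.8%. Each of these levels was below that of the YAP5SA cells in the same cluster.

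**Figure D4:**
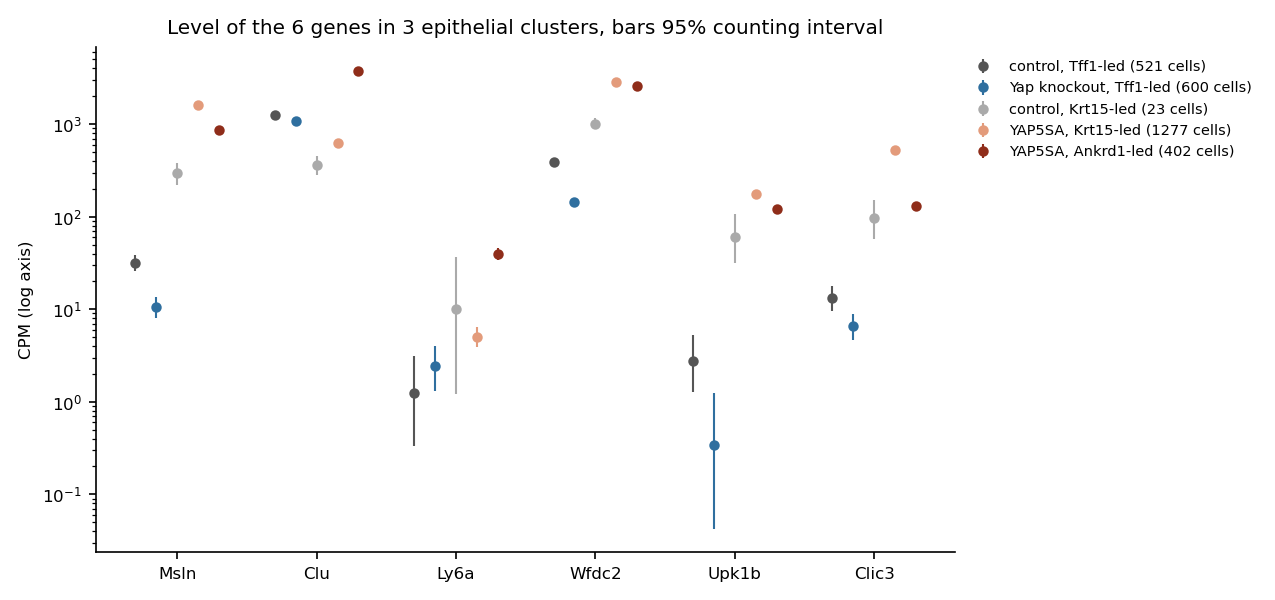
Level of each gene in CPM (log axis) in 3 epithelial clusters named by a leading gene, by library, with 95% counting intervals. In YAP5SA, Clu (3793 against 629 CPM) and Ly6a are higher in the Ankrd1-led cluster and Clic3 (130 against 530 CPM) and Msln are higher in the Krt15-led cluster.

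The same division could be seen cell by cell. In thinned YAP5SA epithelium-gated cells, Clic3 was detected in 37.2% of 804 cells with Msln and 18.1% of 464 cells without it. Clu, by contrast, was detected in 46.2% of 383 cells with Clic3 and 57.6% of 885 cells without it. Ly6a was detected in 17 of 1268 thinned cells, too few to read against the other members. These shares are given as a description, since the cells share a library.

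Within the marker gates of the epithelium, squamous-gated cells of YAP5SA, which express keratins of the neighbouring forestomach, held the most Upk1b, at 526 CPM in 105 cells, against 147 CPM in 872 cells that reached no epithelial gate. Their Msln stood at 1869 CPM against 1492, their Wfdc2 at 3539 against 2757 and their Clic3 at 610 against 485. Clu was lower there, at 394 against 1603 CPM. A squamous marker counted only above its own library's mean, and such keratins were common in YAP5SA epithelium. In the Krt15-led cluster Krt4 was detected in 73.5% and Krt15 in 57.7% of YAP5SA cells. The 872 cells may thus hold these keratins too, and are not a set without them. The 22 YAP5SA cells of the gastric mucous and chief gate still held 770 CPM of Msln and 2101 CPM of Wfdc2, against 35.3 and 356 CPM in 174 such control cells. A marker of this gate counted against its own library's mean, so the 22 and 174 cells were not matched. Tff1 of that gate stood at 59.4 CPM in YAP5SA and 6237 CPM in control epithelium. In the Tff1-led cluster 42 YAP5SA cells held 172 CPM (121 to 238) of Msln and 718 CPM of Wfdc2. Control cells of that cluster held 31.8 and 387 CPM. Other YAP5SA classes with at least 50 cells held 75.5 to 131 CPM of Msln. Msln and Wfdc2 were thus above the control in YAP5SA cells with gastric markers, but these were few. The part of RNA from other cells was not tested.

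Several members were found together in the same YAP5SA cell. At least 4 of the 6 genes had a UMI in 4.30%, 77.9% and 1.95% of epithelium-gated cells (control, YAP5SA, Yap knockout). At 1000 UMIs per cell, at least 3 were detected in 0.662%, 49.0% and 0.216%. Control mesothelium, where Msln and Upk1b also occur, had at least 3 in 11.9% of its cells at that depth. Such shares rise when each gene alone is detected in more cells. The share that would follow from that alone was not computed, so these values do not show that the genes go together within cells.

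**Figure D5:**
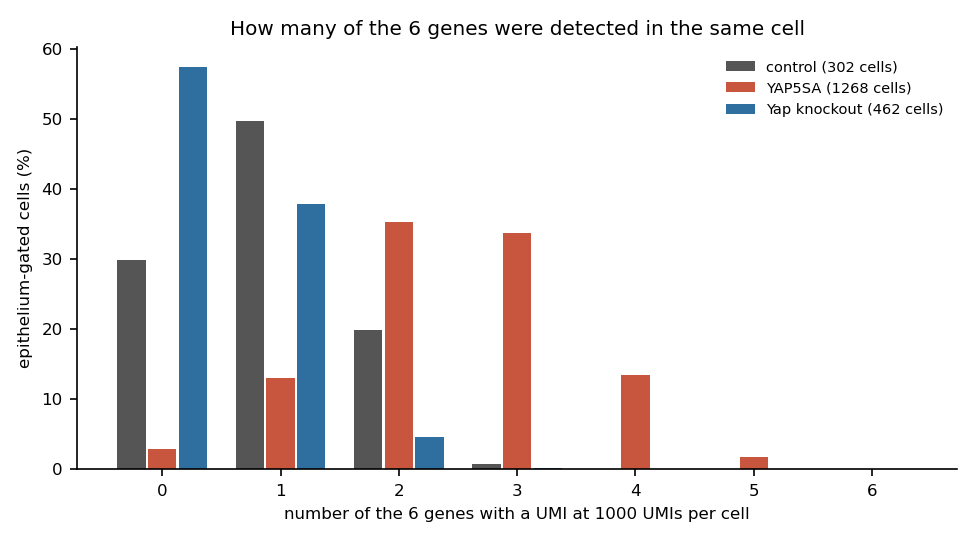
Share of epithelium-gated cells (vertical axis, percent) by the number of the 6 genes with a UMI after thinning to 1000 UMIs, for each library. Most control and Yap knockout cells hold 0 or 1 of the genes and most YAP5SA cells hold 2 or 3.

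The mesothelium was read apart, since it is the main source of Msln and Upk1b in the control. Its cells were few in YAP5SA and the Yap knockout, and a counting interval leaves out the chance of which cells were caught. Msln stood at 643, 1299 and 254 CPM, a ratio of 2.02 (1.73 to 2.35) in YAP5SA and 2.53-fold lower in the knockout. Wfdc2 stood at 210, 550 and 92.9 CPM and Clic3 at 38.5, 257 and 6.19 CPM, the last from 1 UMI. Upk1b stood at 222, 328 and 155 CPM. By CPM these genes stood in the order of libraries seen in the epithelium, but Upk1b of the Yap knockout rests on 25 UMIs. By joint clusters Upk1b stood at 203 CPM (182 to 226), 269 CPM (213 to 335) and 184 CPM (129 to 253), with intervals that overlapped. Its order in mesothelium is thus not settled. Clu did not follow the order of the epithelium, at 373, 445 and 421 CPM.

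Among the 5 members with enough UMIs, 3 were at least 2-fold higher in YAP5SA mesothelium (Msln, Wfdc2 and Clic3), where 3.59% of 8489 genes were higher and 12.8% lower. The call of Msln, at a log2 ratio of 1.01, fell short of 2-fold with class by joint clusters (0.72), a gate lead of 1 marker (0.79), TMM scaling (0.87), a mean over cells (0.88), doublets kept (0.91) and the myeloid level subtracted (0.92). With that subtraction Wfdc2 was also short of it (0.93), so 1 of the 3 (Clic3) remained past 2-fold. In the Yap knockout the same 3 were lower, where 12.5% of 8613 genes were lower and 12.3% higher. Of these, Clic3 rests on 1 UMI in the Yap knockout, and Wfdc2 was short of 2-fold with a gate lead of 1 marker, at a log2 ratio of -0.98. Clu had ratios of 1.19 (0.924 to 1.52) and 1.13 (0.864 to 1.46), neither separated from 1. The first turned to a log2 ratio of -0.06 with the myeloid level subtracted, and the second turned to a log2 ratio of -0.22 under TMM scaling, which moved the median of all genes in mesothelium by -0.40 in the Yap knockout and -0.14 in YAP5SA. Ly6a had 6, 1 and 1 UMIs there. The 8 epithelial markers summed to 94.3, 205 and 92.9 CPM in the mesothelium gate, so epithelial RNA was also higher in that gate of YAP5SA, and its part in these ratios was not tested.

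Mesothelial markers were read in the epithelium gate in turn. They also define the mesothelium gate, and epithelium-gated cells needed a lead of epithelial markers. Low levels in the epithelium gate thus follow in part from the gates and test nothing. The 8 of them summed to 85.1 CPM in control epithelium, 167 in YAP5SA and 51.5 in the Yap knockout, against 2824, 2797 and 3010 CPM in the mesothelium gates. In YAP5SA epithelium Upk3b, an uroplakin, made up 135 of these 167 CPM. Aldh1a2 stood at 13.8 CPM (11.6 in the control), Nkain4 at 13.5 CPM (18.6), Wt1 at 2.94 CPM (7.03), Muc16 at 1.04 CPM, Lrrn4 at 0.653 CPM and Gpm6a at 0.326 CPM, and Bnc1 was at 0. Upk3b stood at 40.4 CPM in control epithelium, so it accounted for the higher sum in YAP5SA.

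The source of each gene's RNA in the whole tissue differed between the libraries. Of all Msln UMIs, 60.9% came from mesothelium and 9.52% from epithelium in the control. In YAP5SA 0.784% came from mesothelium and 76.4% from epithelium. In the Yap knockout 43.9% came from epithelium and 26.5% from mesothelium. For Upk1b, 63.9% came from mesothelium in the control and 75.2% from epithelium in YAP5SA, and of the 50 Upk1b UMIs in the Yap knockout 50.0% came from mesothelium and 10.0% from epithelium. Cells in no gate gave 19.3%, 13.4% and 15.5% of Msln and 19.2%, 12.6% and 28.0% of Upk1b. For Ly6a, endothelium gave 59.4%, 36.7% and 49.6% (control, YAP5SA, Yap knockout), and epithelium gave 1.45%, 27.8% and 4.01%. These shares also depend on how much of each class was captured. Mesothelium gave 2.82%, 0.282% and 0.437% of all UMIs, and epithelium 6.30%, 25.3% and 16.1%. The epithelial share of Ly6a in YAP5SA was thus near the epithelial share of all UMIs. Endothelium gave 36.7% of Ly6a there from 3.33% of all UMIs, which lowers the share of every other class.

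Other genes known from fetal and regenerating epithelium followed the members in part. Of 18 such genes 11 were at least 2-fold higher in YAP5SA epithelium and 1 lower, against 5.05% and 3.68% of all tested genes, and their median log2 ratio was 1.44 against 0.07. Cldn6, a tight junction protein of embryonic epithelia, was 23.9-fold higher, at 151 against 6.33 CPM. The annexin gene Anxa8 was 22.6-fold higher, at 214 against 9.49 CPM. Ly6d, another Ly6 family gene, was 3.51-fold lower, at 70.2 against 247 CPM, and Ly6e 1.25-fold lower. In the Yap knockout, where 1.45% of all tested genes were higher and 2.07% lower, 1 of the 18 was higher (Basp1, at 103 against 40.4 CPM) and 3 were lower, among them the keratin gene Krt7, at 161 against 377 CPM, and Ly6d, at 109 against 247 CPM.

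Of 14 known targets of YAP and TEAD, 10 were at least 2-fold higher and 0 lower in YAP5SA epithelium, against 5.05% and 3.68% of all tested genes, and their median log2 ratio was 1.13 against 0.07. Ankrd1 had 0 UMIs in control epithelium and 128 CPM in YAP5SA, at least 121.5-fold higher against a floor of 3 counts. Ccn2, a matricellular protein, was 14.9-fold higher and the LIM protein gene Ajuba 8.29-fold. The lowest ratios were those of the receptor kinase gene Axl, at 1.60, and of Arhgef17, at 1.84. Of 13 tested in the Yap knockout 1 (Axl) was lower and 0 higher, against 2.07% and 1.45% of all tested genes. Axl stood at 14.5 CPM against 41.1 in the control. Both lists were drawn up with results of these data known.

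Genes related to the members were mixed. Of 14 listed genes, relatives by family and the mesothelin partner Muc16, 3 (Wfdc1, Ly6g6c and Clic5) were at least 2-fold higher and 1 (Clic6) lower in YAP5SA epithelium, where 5.05% of all tested genes were higher and 3.68% lower. Their median log2 ratio was 0.27. Of the 11 tested in the Yap knockout 2 were higher and 1 lower, where 1.45% of all genes were higher and 2.07% lower. In the Clic family, Clic1 was 1.92-fold higher at 614 against 320 CPM, whereas Clic4 had a ratio of 0.667 and Clic6 of 0.250. Among the Wfdc genes, Wfdc1 stood at 221 against 58.7 CPM, 3.77-fold higher. The uroplakin genes Upk1a, Upk2 and Upk3a stood at 4.24, 15.9 and 1.63 CPM in YAP5SA and at 2.46, 11.6 and 2.11 CPM in the control. Upk2 was 6.27-fold lower in the Yap knockout. Upk3bl, which is outside the list, had the order of Msln, at 156, 833 and 5.21 CPM in control, YAP5SA and Yap knockout epithelium. Upk3b, also outside it, stood at 40.4, 135 and 36.3 CPM, with little difference between control and Yap knockout. Muc16, a mucin that binds mesothelin and a marker of the mesothelium gate, stood at 1.04 CPM in YAP5SA and 3.87 CPM in the control.

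Across 28 sums of a class in a library, each over at least 50 cells, Clic3 had the highest correlation of log2(CPM + 5) with Msln, at a Pearson r of 0.96, followed by the keratin genes Krt7 and Krt15. Clic3 itself was most like Anxa8, at 0.98, then Msln and Wfdc2. Wfdc2 was most like Clic3, at 0.95, then the keratin genes Krt19 and Krt7. Upk1b was most like Krt14, at 0.94, then Msln and Efemp1. Clu was most like Spint2, at 0.93, then Cyp2s1 and Elmo3. Ly6a was most like Tmem88, at 0.94, then Cd38 and Prcp, and its r with the other 5 members lay between -0.03 and 0.10. The sums share libraries, and the highest of them are those of a few classes, so these values only describe likeness.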

How the data were processed

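The deposited matrices hold counts, the whole UMIs of each gene in each cell. PISA 1.0 wrote them, per the file headers, and the submitters' processing notes name STAR and GRCm39. The library totals were 48910624 (control), 65843658 (YAP5SA) and 40857358 (Yap knockout) UMIs over 7692, 9439 and 5739 cells. The sources used here name no correction for free RNA. Cell names are generic, and 2409, 1388 and 1528 were shared between pairs of libraries, 0 of them with equal UMI totals.

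Cells with at least 500 genes and at most 20% mitochondrial UMIs passed (7372, 9029 and 5201). Scrublet in scanpy 1.11.5 called 1, 0 and 0 doublets on its own, which is too few to have worked, so the top 6% of scores in each library was left out instead (405, 529 and 299 cells). A marker counted in a cell when its UMIs exceeded those its library's mean share gives at that depth. A cell took the class of 13, with 8 markers each, with the most counted markers, at least 3 and 2 more than the next. This scoring was set after marker counts had been seen. The 6 epithelial gates needed 3 markers and could overlap. Joint Leiden clusters used 3000 variable genes without the members, 40 components, 15 neighbours and resolution 1.0, with igraph 0.11.9. The detection shares were also taken after thinning each cell to 1000 UMIs, and 0 kept cells were shallower.

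UMIs were summed by class and scaled to CPM. Ratios carry exact conditional Poisson intervals and shares exact Clopper-Pearson intervals. Counts of 2-fold differences used log2(CPM + 5) over genes with at least 20 UMIs in both libraries together. TMM factors came from edgeR 4.0.16 as an alternative. Other software was scipy 1.17.1, numpy 2.4.6, anndata 0.12.19 and matplotlib 3.10.9 under Python 3.11.15. The ratio and its 2-fold rule were tested on simulated sums with counting error alone. Spread between cells or libraries and free RNA lay outside that simulation, so it says nothing about them.

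The members, gene lists, markers and alternatives were chosen with earlier results of these data known. Beside the members, the text names up to 3 genes with the highest and 2 with the lowest YAP5SA ratio in each list, relatives at 20 CPM or more in the epithelium of any library and the 3 genes most like each member at 20 CPM or more in any sum; 1 listed gene is not reported here. Marker genes, leading genes of clusters, Yap1, the Ly6c1, Upk1a, Upk2, Upk3a, Upk3b, Upk3bl, Muc16, Ly6g6c and Clic5 genes and knockout values of listed genes were added after their values were seen.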

Additional observations from a re-analysis of the deposited data

How the results depend on the processing

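Of the log2 ratios of the 6 genes, 77 of 78 alternative values kept their direction for YAP5SA epithelium, 76 of 78 for Yap knockout epithelium, 70 of 72 for YAP5SA mesothelium and 69 of 72 for Yap knockout mesothelium. The alternatives were other gates, class by joint clusters, doublets or all cells kept, a stricter mitochondrial limit, TMM scaling, another pseudocount, no filter on low counts, a mean over cells, the myeloid level subtracted and gates left out. Another pseudocount cannot turn the direction of a ratio, so its values add nothing to these counts. A gate with a lead of 1 marker was added after seeing the data. The log2 ratio of Clic3 in Yap knockout epithelium turned to 0.0451 with a mean over cells of each cell's own CPM, and the cause was not tested. With the myeloid level subtracted, the number of genes at least 2-fold higher in YAP5SA mesothelium was 1 in place of 3. The number was 2 with joint clusters, TMM scaling, a mean over cells, doublets kept or a lead of 1 marker, each time without Msln. The number of genes at least 2-fold lower in Yap knockout epithelium and mesothelium was 2 in place of 3 with a lead of 1 marker, and in epithelium also with a mean over cells, the myeloid level subtracted or gates left out. With the myeloid level subtracted, the log2 ratio of Ly6a was 0, since its level in either gate lay below the myeloid level of each library. Myeloid cells hold Ly6a, so this 0 says nothing about the difference. In YAP5SA epithelium the ratio to myeloid cells was 0.958 (0.760 to 1.21), at 14.4 against 15.1 CPM. The log2 ratio of Msln in YAP5SA epithelium ranged from 4.75 to 5.20 and that of Clu from 0.26 to 0.51. No paired analysis was possible because each genotype has 1 library, and leaving out a replicate was not possible for the same reason. Depth limits Ly6a, with 5 UMIs in control epithelium, and all 6 genes in the 18 and 16 mesothelium-gated cells of YAP5SA and the Yap knockout.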
